A study of Mus musculus with 8 samples.

Results

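The cytosolic ribosomal protein genes are described here, in cells sorted from the femoral growth plates of mice given a hedgehog agonist or its vehicle. Members were chosen by symbol: every Rpl or Rps gene with a number and at most a short suffix (a, x, l, al or l1), plus Rplp0, Rplp1, Rplp2 and Rpsa. Symbols of the Rps6k kinases and of pseudogenes ending in -ps were left out. The rule found 85 of the 16536 genes in the table, of which 30 encode proteins of the small subunit, 43 proteins of the large subunit and 3 proteins of the stalk. These 76 are called core members below. The other 9 were 6 paralogs (Rpl3l, Rpl7l1, Rpl22l1, Rpl36al, Rpl39l and Rps27l) and 3 genes that GENCODE M21 annotates as pseudogenes (Rpl6l, Rps12l1 and Rps4l). All 85 passed the filter on low counts.

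RNA was sequenced from mice of a Pthrp-mCherry line, in which mCherry marks cells that express PTHrP, the growth plate signal made by resting chondrocytes. Animals of that line formed both groups, 4 given SAG, an agonist of the hedgehog transducer Smoothened, and 4 given DMSO alone, by daily intraperitoneal injection from postnatal day 30 to 36 and killed at day 38. Both sexes were used in the study, and the labels do not give the sex of each mouse. Each library came from the mCherry-positive, CD73-positive cells of 2 femoral growth plates of 1 mouse, and holds between 24971992 and 46593090 counts.

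Each ribosome holds a single copy of almost every ribosomal protein, and the exceptions are the stalk proteins encoded by Rplp1 and Rplp2, which are present as dimers on a base formed by the Rplp0 protein. The mRNAs of these genes typically begin with a C followed by a run of pyrimidines, the terminal oligopyrimidine (TOP) motif, through which mTORC1 controls their translation together. Growing chondrocytes make large amounts of matrix protein and depend on a high capacity for translation.

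The start of the message is shown for members with and without that motif at the annotated first base. The motif is the feature these genes are best known to share. RefSeq promoter windows on GRCm38.p6 were matched by symbol for 62 of the 85 members. Each line gives 30 bases 5′ to 3′, from 10 bases before the annotated start, and capitals mark the pyrimidine run that opens with a C at the start itself.
Rps6, chr4:86857348-86857377, minus strand: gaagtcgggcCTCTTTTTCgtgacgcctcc
Rpl15, chr14:18270967-18270996, minus strand: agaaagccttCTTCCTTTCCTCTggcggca
Rpl35, chr2:39005112-39005141, minus strand: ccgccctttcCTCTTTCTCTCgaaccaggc
Rps10, chr17:27635225-27635254, minus strand: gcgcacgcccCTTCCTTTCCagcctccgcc
Rplp2, chr7:141447641-141447670, plus strand: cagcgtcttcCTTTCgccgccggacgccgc
Rps9, chr7:3704031-3704060, plus strand: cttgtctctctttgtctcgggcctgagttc
Rpl36a, chrX:134585644-134585673, plus strand: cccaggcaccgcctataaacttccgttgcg
Rpl24, chr16:55966265-55966294, plus strand: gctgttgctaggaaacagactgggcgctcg
The last 3 have no capitals, since their annotated start is not a C followed by at least 4 pyrimidines. In Rps9, runs of that kind open 3 and 5 bases before the annotated start, so it lacks the motif only at the exact base. Such a start was present in 13 of 62 members (21%) and in 3.01% of 27025 genes with a window, and with a shift of up to 5 bases in either direction it was present in 46.8% of members and 21.2% of genes. The search reads letters at an annotated start, so a start placed a few bases away is counted as lacking the motif.

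Upstream of the start, CCGGAAG, the core of the sites bound by ETS factors, was searched on both strands over 250 bases. It was present in 29.0% of members and 7.83% of all genes. GGGCGG, the core of the sites bound by SP factors, was present in 51.6% of members and 35.4% of genes, and AAGATGG, the core of the YY1 site, in 8.06% and 5.18%. TATAAA within 40 bases before the start was found in 1.61% of members and 2.78% of genes. The 3 windows below, each the 100 bases before the start, carry the ETS core in capitals on the plus or minus strand and show how its position varies.
Rps6, chr4:86857368-86857467, minus strand: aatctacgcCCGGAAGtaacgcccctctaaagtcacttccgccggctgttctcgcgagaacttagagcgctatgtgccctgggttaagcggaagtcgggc
Rpl19, chr11:98026610-98026709, plus strand: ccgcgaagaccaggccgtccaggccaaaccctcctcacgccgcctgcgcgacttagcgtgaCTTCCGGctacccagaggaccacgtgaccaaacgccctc
Rpl38, chr11:114668480-114668579, plus strand: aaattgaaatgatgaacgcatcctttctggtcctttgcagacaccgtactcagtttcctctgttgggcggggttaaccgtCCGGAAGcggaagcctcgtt
The 13 members with a TOP start at the first base had a median log2 fold change between SAG and DMSO of -0.14. For the 49 with a window but no such start it was -0.11. With a shift of up to 5 bases, 29 of the 62 members had the motif, so the 49 include members that carry it near the start. These medians therefore do not compare genes with and without the motif.

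Before the comparison, 2 facts about the libraries bear on every value below. Summed over 14 neutrophil markers, the DMSO libraries held between 5388 and 15219 CPM (counts scaled to a library of 1000000). The SAG libraries held between 28933 and 46132 CPM. Of the 14, 11 were called higher in SAG, where 2.62% of all genes tested were. Summed over 12 chondrocyte markers, the DMSO libraries held between 44626 and 100284 CPM and the SAG libraries between 17316 and 48838, with 0 of 12 called, and the sum of Pthlh, Nt5e (which encodes CD73) and Sfrp5, genes of the sorted cells, lay between 277 and 353 CPM with DMSO and between 192 and 230 CPM with SAG. A group of 12 B lineage markers ran from 96.0 to 480 CPM with DMSO and from 29.9 to 57.7 CPM with SAG. Of the 11 tested, 3 were called lower, where 0.266% of all genes tested were. In such pooled cells, fewer cells of a type and less RNA per cell cannot be told apart. The part of these other cells in the ribosomal protein values was not tested beyond the marker covariates given below.

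The 85 members together took 2.74%, 3.06%, 3.13% and 2.75% of all counts in the 4 DMSO mice and 3.19%, 2.21%, 2.79% and 2.34% in the 4 SAG mice. The first SAG mouse had the highest share of all 8, the second SAG mouse had the lowest, and the groups overlapped. On average the share was 2.92% ± 0.201 (SD, n = 4) with DMSO and 2.63% ± 0.445 (SD, n = 4) with SAG. Small subunit genes held 0.964% ± 0.0824 of counts with DMSO and 0.942% ± 0.147 with SAG (SD, n = 4 each). Large subunit and stalk genes held 1.93% ± 0.120 with DMSO and 1.67% ± 0.302 with SAG (SD, n = 4 each), so both differences in share were smaller than the SD of the SAG mice.

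**Figure D1:**
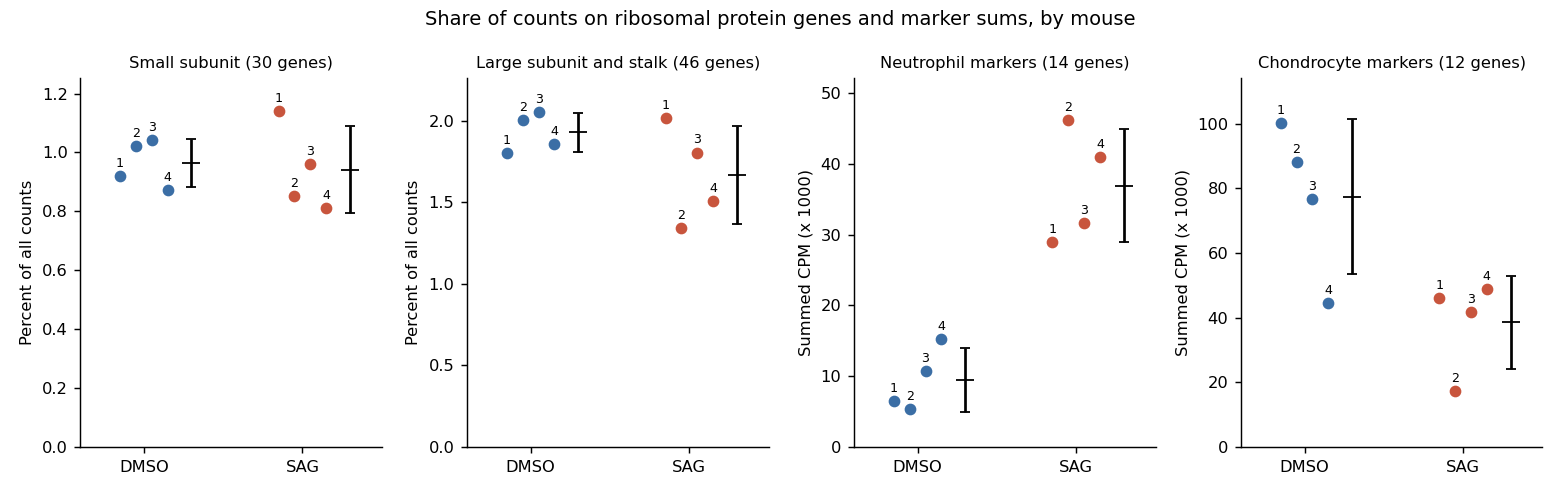
Share of all counts on small subunit genes and on large subunit and stalk genes (percent, from 0), and summed CPM of neutrophil and chondrocyte markers (in units of 1000, from 0), in each mouse. Points are mice numbered by replicate, and bars are the mean and SD of 4 mice. The second SAG mouse had the lowest large subunit share (1.34%), the highest neutrophil sum (46132 CPM) and the lowest chondrocyte sum (17316 CPM).

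Tested one by one, none of the ribosomal protein genes passed the test between the treatments, and most fold changes were small. With edgeR's quasi-likelihood test on the counts, 0 of 85 members passed an adjusted p of 0.05, where 2.89% of the 15421 genes tested did (2.62% higher in SAG and 0.266% lower). At an unadjusted p under 0.05, 3 members were higher in SAG (Rpl37a, Rps9 and Rps12l1) and 4 were lower (Rpl12, Rpl31, Rpl36a and Rplp1), where 9.58% of all genes were higher and 6.5% lower at that limit (7 of 85 members and 16.1% of genes in either direction). DESeq2 called 0 members where it called 7.7% of genes (2.53% lower in SAG). With sample quality weights, limma voom called 1 member lower, Rplp1, where it called 9.03% of genes (2.58% lower).

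The fold changes of the core members lay close together. Their log2 fold changes had an SD of 0.22, against 0.92 over all genes tested, and the median SE of a member was 0.20, against 0.44. For the 20 translation factors and binding proteins with TOP mRNAs, described below, the SD was 0.27 and the median SE 0.18. A spread this narrow was therefore not particular to the members. The median over the 85 members was -0.12 on the log2 scale and that over all genes was -0.08. Of the members, 64 were below 0, as were 8457 of the 15421 genes, but the members' count was 45 without the second SAG mouse, 27 with the neutrophil marker score as a covariate and 72 with the B lineage score. The 95% interval of the change lay inside a range from 2-fold lower to 2-fold higher for 73 of the 76 core members, inside a 1.5-fold range for 30 and inside a 3-fold range for all 76.

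**Figure D2:**
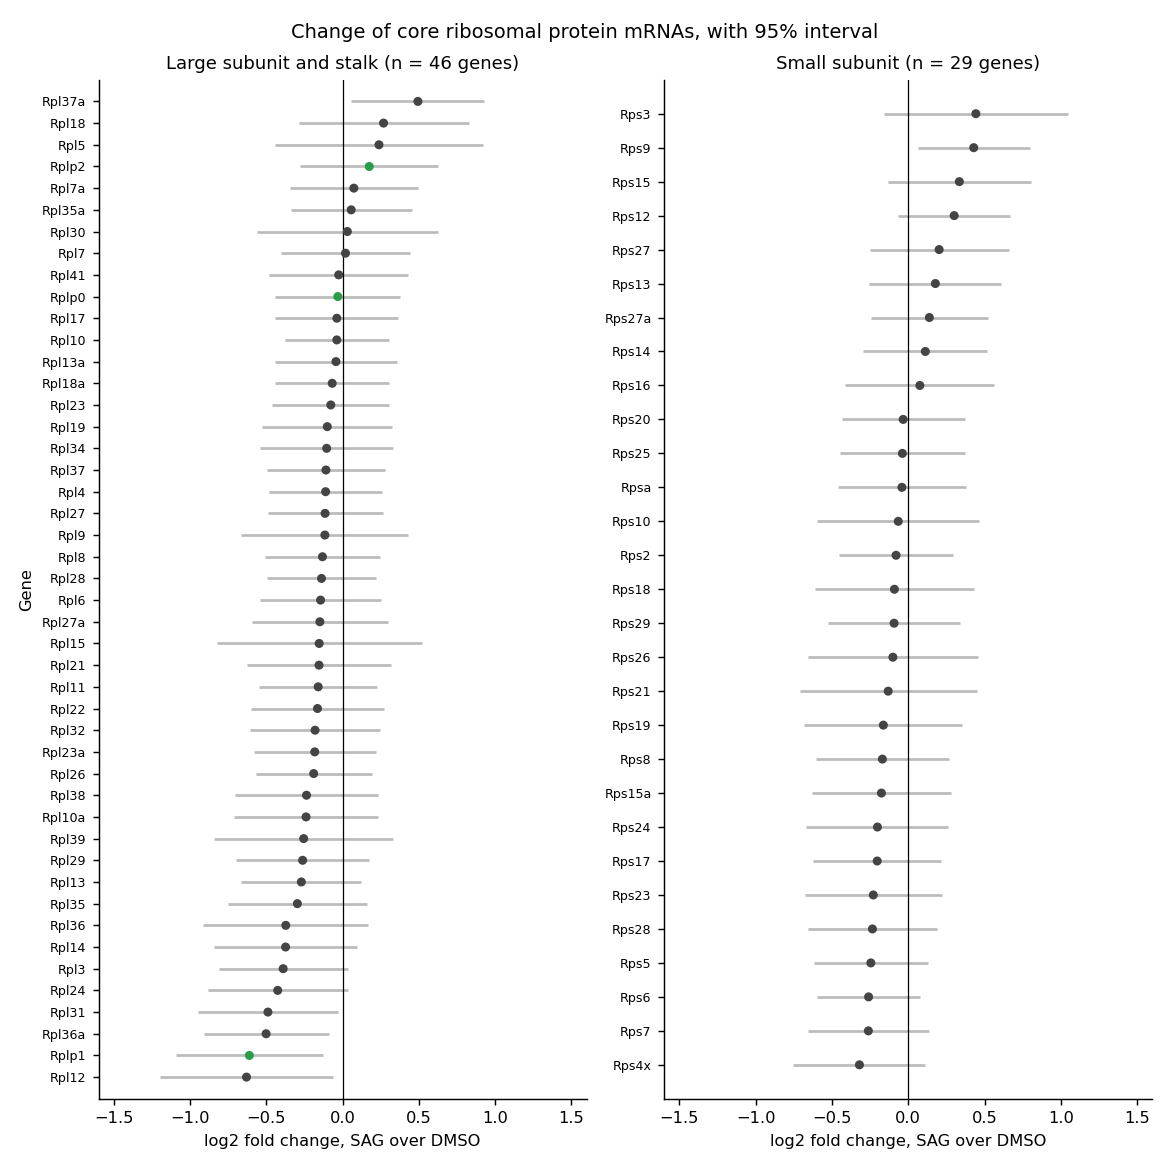
Log2 fold change of SAG over DMSO (x axis) for 75 of the 76 core members (y axis), with the 95% interval of edgeR's fit as a grey line. Stalk genes are green. The points run from -0.63 for Rpl12 to 0.49 for Rpl37a, and 6 intervals leave out 0 without adjustment for the number of genes.

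The second SAG mouse set much of the small downward shift. It was the lowest of its group in 62 of the 76 core members, while the first SAG mouse was the highest in 51. Among DMSO mice the fourth was the lowest in 43. Without the second SAG mouse the median log2 fold change of the 85 members was -0.02, with all genes at -0.07, and without the first SAG mouse it was -0.20, with all genes at -0.09. Without both the second SAG mouse and the fourth DMSO mouse it was -0.07, with all genes at -0.05. With the neutrophil marker score as a covariate the median was 0.11, with all genes at 0.15, and with the B lineage marker score it was -0.37, with all genes at -0.10. The sums of both marker lists did not overlap between the groups, so these covariates and the treatment cannot be told apart.

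**Figure D3:**
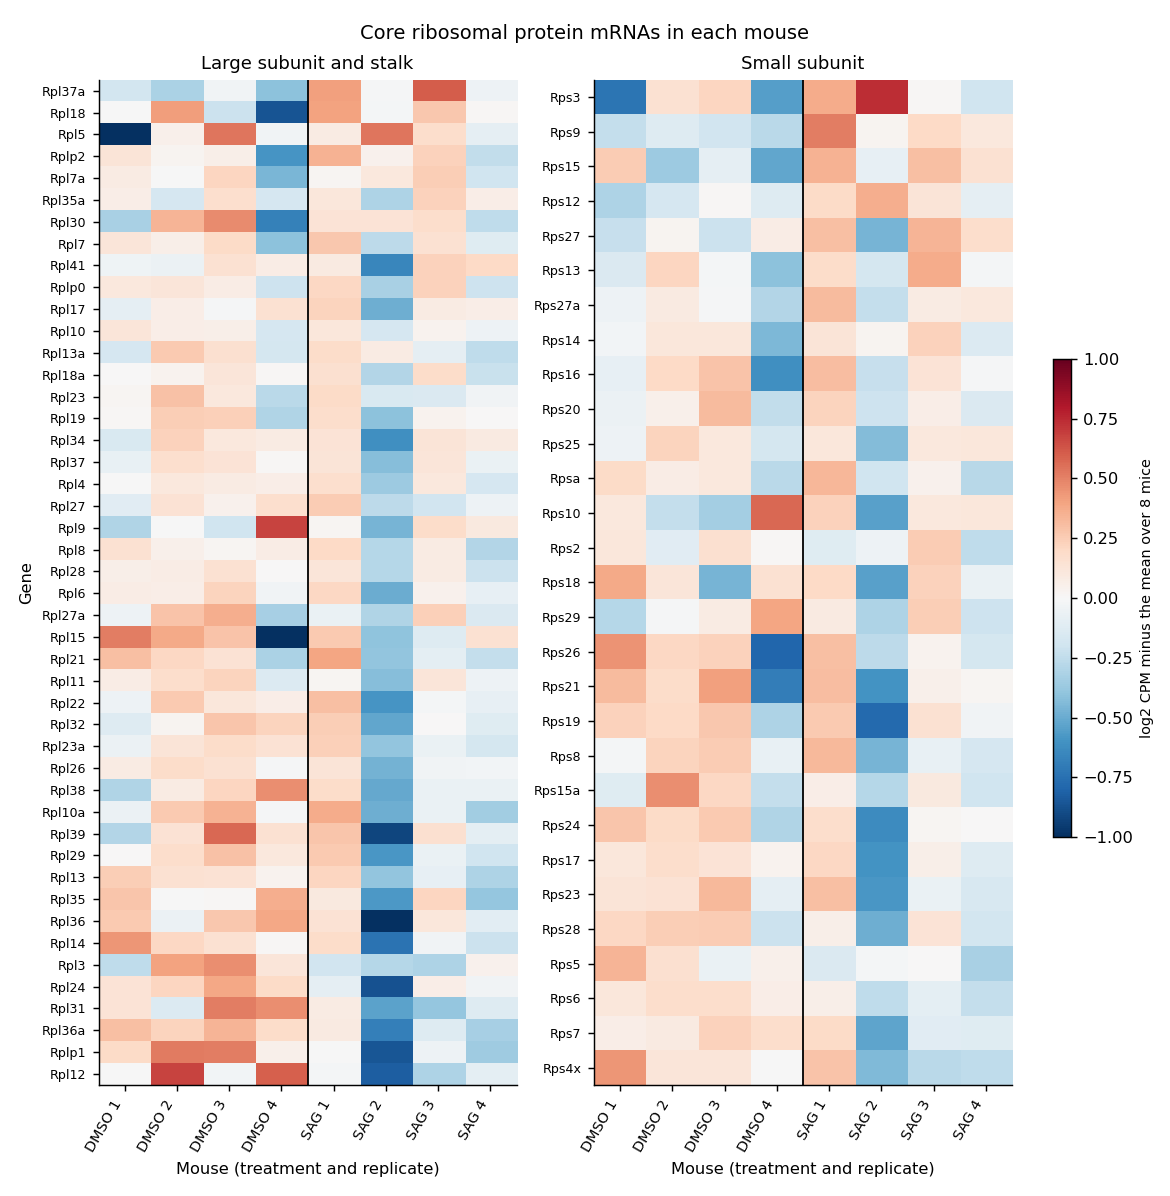
Log2 CPM of 75 of the 76 core members in each mouse, as the difference from that gene's mean over the 8 mice (colour, ending at -1 and 1). Rows are genes ordered by fold change and columns are mice. The column of the second SAG mouse is blue in most rows, and the first SAG mouse is mostly red.

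Across the core members, levels were highly correlated between all mice. Pearson's r of log2 CPM per kilobase of merged exon was taken across the 76 genes. It was between 0.959 and 0.990 for pairs of DMSO mice and between 0.971 and 0.993 for pairs of SAG mice. For a DMSO mouse against a SAG mouse it was between 0.937 and 0.987. A gene's length is the same in every library, so it adds a shared part to both sides of each pair. These are correlations across genes, which are not independent replicates. The levels spanned 163-fold between members, so r stays high even where single members move between mice. Rpl5 was at -0.26 in the first DMSO mouse and 1.44 in the third, as log2 CPM relative to the median core member of the library. Per kilobase of merged exon, the core members ran from 12.5 CPM for Rps15a to 2042 CPM for Rplp1, with a median of 159. Rpl23a, Rpl19 and Rpl29 followed Rplp1 on that scale. With the longest transcript as the length, Rpl23a came first at 2181 CPM per kilobase and Rps15a stayed last at 15.2.

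Among the stalk genes, Rplp1 was the member whose groups lay furthest apart in the test. The gene (chr9:61913284-61914542, minus strand, GENCODE M21 on GRCm38) encodes an acidic protein that recruits the translation GTPases. Its level was 1117, 1402, 1396 and 1011 CPM in the DMSO mice and 977, 542, 943 and 763 CPM in the SAG mice. Every SAG mouse was below every DMSO mouse. The log2 fold change was -0.61 with an SE of 0.22 (edgeR adjusted p = 0.185). DESeq2 gave -0.63 (adjusted p = 0.0602) and limma voom -0.69 (adjusted p = 0.0343), and voom alone called it. With the neutrophil marker score as a covariate the value was -0.07 (edgeR adjusted p = 0.95) and with the B lineage score it was -1.02 (edgeR adjusted p = 0.169).

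Rplp0 (chr5:115559467-115563727, plus strand), the base of the stalk and a common reference gene in PCR, overlapped between the groups. It stood at 733, 740 and 715 CPM in the first 3 DMSO mice and 591 CPM in the fourth, and at 787, 544, 799 and 589 CPM in the SAG mice. Its log2 fold change was -0.03 with an SE of 0.19 and a 95% interval from -0.44 to 0.38. Rplp2 (chr7:141447370-141451585, plus strand), the partner of Rplp1, was measured at 453, 423, 431 and 276 CPM with DMSO and 526, 426, 485 and 349 CPM with SAG. Its groups overlapped, at a log2 fold change of 0.18 with an SE of 0.21 (edgeR adjusted p = 0.765).

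The ratio of Rplp1 to Rplp2 counts within a library is free of scaling between libraries, and was looked at after the values above were seen, so it carries no test. It was 2.47, 3.31, 3.24 and 3.67 in the DMSO mice and 1.86, 1.27, 1.94 and 2.19 in the SAG mice. No SAG mouse reached the lowest DMSO mouse. The ratio of Rplp1 to Rplp0 was 1.52, 1.89, 1.95 and 1.71 with DMSO and 1.24, 1.00, 1.18 and 1.30 with SAG, also without overlap, while that of Rplp2 to Rplp0 overlapped (0.565 ± 0.0683 with DMSO and 0.663 ± 0.0871 with SAG, SD, n = 4 each).

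**Figure D4:**
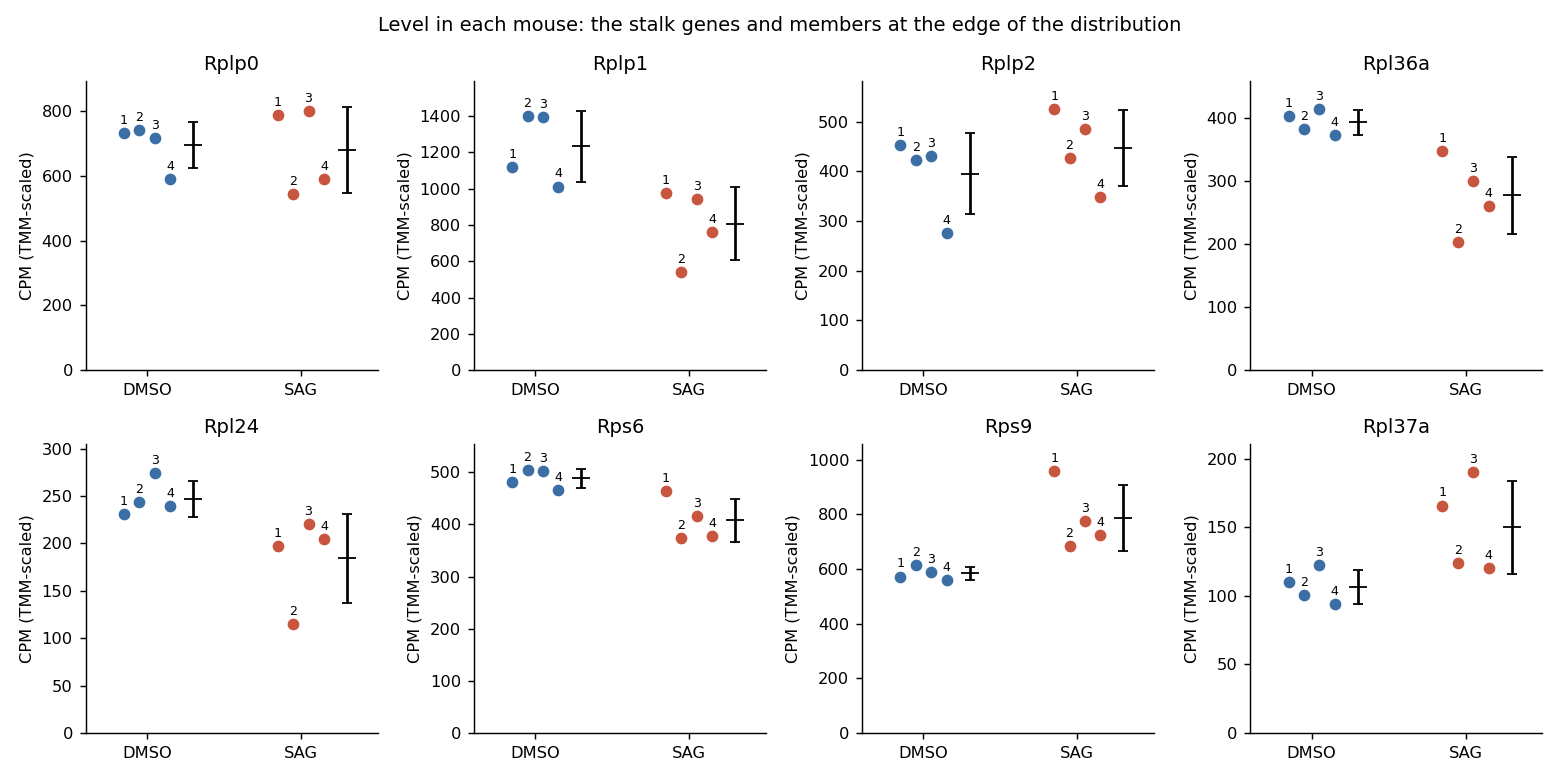
CPM scaled by TMM factors (y axis, from 0) of the 3 stalk genes and of 5 members at the edge of the distribution, in each mouse. Points are mice numbered by replicate, and bars are the mean and SD of 4 mice. Rplp1, Rpl36a, Rpl24 and Rps6 have every SAG mouse below every DMSO mouse, and Rps9 has every SAG mouse above.

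Over the 85 members, groups failed to overlap for 5. Every SAG mouse lay below every DMSO mouse for 4 of them (Rplp1, Rpl36a, Rpl24 and Rps6), which is 4.71% of members where 3.84% of all genes did so, and above for 1 (Rps9), which is 1.18% where 7.9% did.

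The 43 genes of the large subunit centred on a log2 fold change of -0.14 (median), with 36 of them below 0. Rpl36a, an X-linked gene (chrX:134585654-134588062, plus strand) for a protein near the tRNA exit site of the ribosome, was at 404, 383, 415 and 373 CPM with DMSO and at 348, 204, 300 and 261 CPM with SAG. The log2 fold change was -0.50 with an SE of 0.19 (edgeR adjusted p = 0.20), and -0.27 with the neutrophil score as a covariate. Rpl24, which encodes a protein that bridges to the small subunit, was at 231, 244, 275 and 239 CPM with DMSO and at 197, 115, 220 and 205 CPM with SAG. It fell short of the test (log2 fold change -0.43, SE 0.21, edgeR adjusted p = 0.36), and without the second SAG mouse its value was -0.25.

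Rpl12, which encodes a protein at the foot of the stalk, had the lowest fold change of the core members. It was at 49.3, 79.1, 48.6 and 74.9 CPM with DMSO and at 48.8, 28.0, 39.8 and 46.2 CPM with SAG, so that 2 DMSO mice and 2 SAG mice were at about the same level. Its log2 fold change was -0.63 with an SE of 0.26 (edgeR adjusted p = 0.254). Rpl31, which encodes a protein at the mouth of the peptide tunnel, was at 141, 117, 183 and 177 CPM with DMSO and at 136, 88.7, 98.1 and 117 CPM with SAG (log2 fold change -0.49, SE 0.21, edgeR adjusted p = 0.268).

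At the other end, Rpl37a was at 110, 100, 122 and 93.9 CPM with DMSO and at 166, 124, 190 and 120 CPM with SAG. The groups overlapped only by the lowest SAG mouse and the highest DMSO mouse, and the log2 fold change was 0.49 with an SE of 0.20 (edgeR adjusted p = 0.245). Of the genes for the ribosomal particle known to bind Mdm2 when ribosome assembly fails, Rpl11 had a log2 fold change of -0.16 (SE 0.18) and Rpl5 one of 0.24 (SE 0.31). Of the core members, Rpl5 also varied most within groups, from 240 to 829 CPM among DMSO mice, with a within-group SD of 0.57 on the log2 scale. Rpl15 (0.56), Rpl39 (0.46) and Rps3 (0.45) came next among the core members, and Rps6 (0.11) and Rpl10 (0.12) varied least.

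The most abundant large subunit genes per kilobase did not separate the groups. Rpl23a was at 1364 ± 99.7 CPM with DMSO and 1202 ± 223 CPM with SAG (SD, n = 4 each). Rpl19 was at 733 ± 125 and 684 ± 112 CPM, and Rpl29 at 803 ± 68.3 and 670 ± 159 CPM, in the same order and with the same n. Their log2 fold changes were -0.18, -0.10 and -0.26, each with an SE of 0.18 to 0.20. Without the second SAG mouse they were -0.090, 0.0085 and -0.13, and without the first they were lower for Rpl23a (-0.30) and Rpl29 (-0.41).

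The small subunit centred on -0.09 (median log2 fold change), with 21 of its 30 genes below 0. Rps9 (chr7:3703993-3706897, plus strand), one of the earliest proteins to join the small subunit, was at 573, 616, 589 and 558 CPM with DMSO and at 960, 686, 775 and 724 CPM with SAG. The log2 fold change was 0.43 with an SE of 0.17 (edgeR adjusted p = 0.227), and every alternative kept it above 0, from 0.16 with the B lineage score to 0.63 with the neutrophil score. Rps6 (chr4:86854660-86857412, minus strand), the substrate of the S6 kinases, was at 482, 504, 502 and 465 CPM with DMSO and at 463, 374, 416 and 378 CPM with SAG. Its log2 fold change was -0.26 with an SE of 0.15 (edgeR adjusted p = 0.467).

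Within a library, the counts of Rps9 over those of Rps6 were 1.19, 1.22, 1.18 and 1.20 in the DMSO mice and 2.07, 1.84, 1.86 and 1.92 in the SAG mice. The 4 DMSO ratios lay closer to each other than to any SAG ratio. On average the SAG ratio was 1.61 times the DMSO ratio. The pair was picked after the values were seen. Since Rps9 had every SAG mouse above every DMSO mouse and Rps6 every SAG mouse below, their ratio had to separate the groups. It is a description and has no test.

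Core members were also set against the median core member of the same library, on the log2 CPM scale. There, 6 of 76 had every SAG mouse above every DMSO mouse (Rpl37a, Rps9, Rps12, Rps13, Rps15 and Rps27a). That share was close to the 7.94% of all genes that did so on that scale. Rplp1 and Rpl36a, 2 of 76, had every SAG mouse below, a share close to the 2.24% of genes. Of the 6, 5 belong to the small subunit, as do 30 of the 76 core members. The small subunit had the higher median log2 fold change (-0.09, against -0.14 for the large subunit), and a difference between subunits was not tested. On average Rps15 was at -2.14 relative to the median member in DMSO mice and at -1.62 in SAG mice, a shift of 0.52. Its groups only just separated, with the first DMSO mouse at -1.68 and the fourth SAG mouse at -1.65. For Rps13 the second DMSO mouse was at -1.37 and the fourth SAG mouse at -1.35. Rps27a, which is made as a fusion with ubiquitin, lay between 0.13 and 0.25 in DMSO mice and between 0.42 and 0.56 in SAG mice.

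Rps3, whose protein sits at the entry of the mRNA channel, had the highest fold change of the small subunit with a wide spread. It was at 912, 1686, 1761 and 1032 CPM with DMSO and at 1957, 2525, 1527 and 1319 CPM with SAG, and the log2 fold change was 0.44 with an SE of 0.28 (edgeR adjusted p = 0.492), or 0.25 without the second SAG mouse. Its highest value was in the second SAG mouse, in which most members were lowest. Rps4x, an X-linked gene, had the lowest fold change of this subunit (-0.32, SE 0.20, edgeR adjusted p = 0.487). Rpsa, which also encodes the laminin receptor precursor, was at 761 ± 102 CPM with DMSO and 740 ± 145 CPM with SAG (SD, n = 4 each), a log2 fold change of -0.04.

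Many ribosomal protein genes carry small nucleolar RNA genes in their introns. The 29 core members with such a gene inside their bounds in GENCODE M21 had a median log2 fold change of -0.08, and the 47 without had -0.15. A total RNA library can hold reads from introns, and how these were counted is not given in the sources used here.

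Some paralogs of ribosomal proteins can replace the parent protein in some tissues. Each was compared with its parent as a percent of the parent's counts. Rpl36al stood at 25.5% ± 4.23 of Rpl36a with DMSO and 29.3% ± 4.91 with SAG (SD, n = 4 each), and Rpl7l1 at 27.3% ± 3.56 and 26.7% ± 3.03 of Rpl7. Rpl22l1 stood at 13.8% ± 4.00 and 13.4% ± 3.73 of Rpl22. Rps27l, a target of p53, stood at 9.67% ± 2.21 and 9.66% ± 4.10 of Rps27, and the annotated pseudogene Rps4l at 5.04% ± 2.72 and 5.75% ± 0.938 of Rps4x. These 5 ratios overlapped between the groups.

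**Figure D5:**
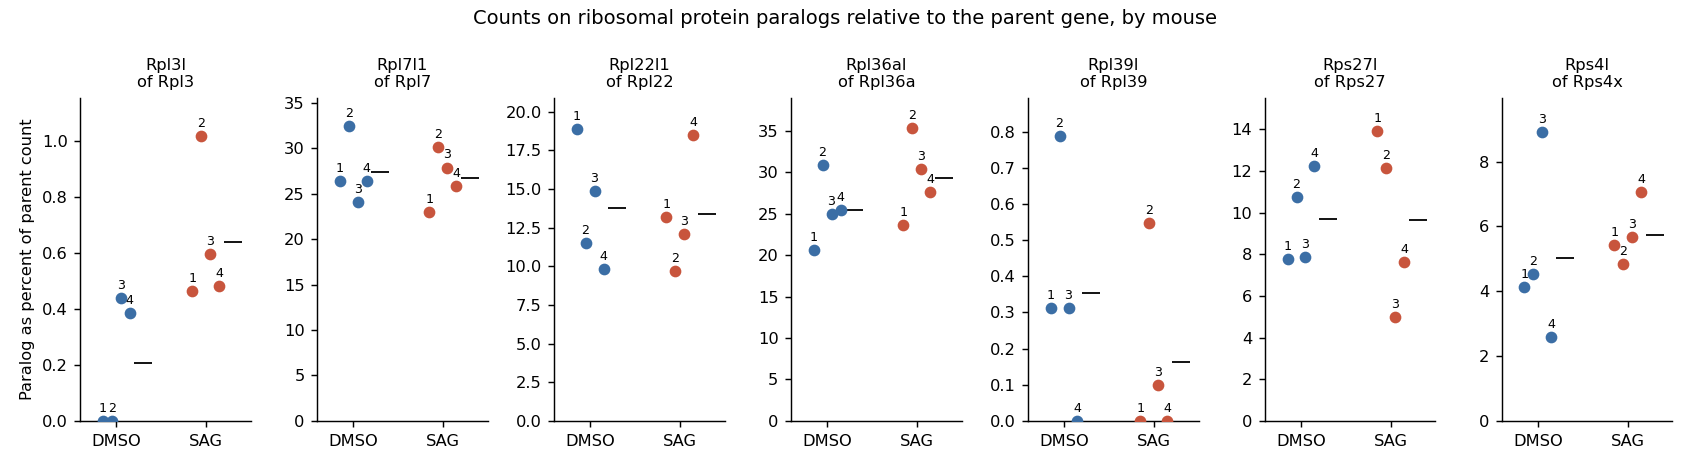
Counts on each of 7 paralogs or annotated copies as a percent of the counts on its parent gene (y axis, from 0), in each mouse. Points are mice numbered by replicate, and the black dash is the mean of 4 mice. In the panel of Rpl3l the 4 SAG mice, from 0.463% to 1.02%, lie above the 4 DMSO mice, which reach 0.439%.

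Rpl3l, the paralog of Rpl3 known from heart and skeletal muscle, had 0, 0, 58 and 32 counts with DMSO and 41, 102, 56 and 63 counts with SAG. Its ratio to Rpl3 was above every DMSO value in all 4 SAG mice. A two-sided exact permutation test gave p = 0.0286, the smallest value that 4 against 4 allows, and 0.20 after Benjamini-Hochberg adjustment over the 7 pairs. The 2 DMSO mice with counts were at 0.439% and 0.385%, just under the lowest SAG mouse at 0.463%, and the gene's own log2 fold change was 1.12 with an SE of 1.63. Rpl39l, the testis paralog of Rpl39, had at most 61 counts in a library and 0 in 3 of the 8.

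Rps12l1 and Rpl6l had the highest fold changes of all members on very few counts. Rps12l1 (chr7:56014016-56014414) had 0, 0, 24 and 0 counts with DMSO and 377, 127, 0 and 166 with SAG, so that 1 SAG mouse was at 0 and 1 DMSO mouse was not. The log2 fold change was 4.59 with an SE of 2.09 (edgeR adjusted p = 0.31). Rpl6l had 33, 151, 0 and 0 counts with DMSO and 106, 169, 132 and 10 with SAG (log2 fold change 1.34, SE 1.64). Both are annotated as pseudogenes, and where a copy is near-identical to an abundant mRNA, the authors' counting could have divided reads between copy and parent, so their values are uncertain.

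The same holds for the 76 pseudogenes with -ps symbols, which took between 0.0154% and 0.0362% of the counts. Of these, 23 passed the filter and 0 were called. Rpl3-ps1 had 5231, 3, 544 and 0 counts with DMSO and 2552, 7, 3447 and 19 with SAG, so that both groups held mice with a high count and mice with almost none. Rps23-ps1 had 630, 5310, 1339 and 1206 counts with DMSO and 4522, 4876, 6667 and 6728 with SAG (log2 fold change 1.36, SE 0.48, edgeR adjusted p = 0.168). For 33 members with such a pseudogene, its counts were added to the parent. They came to at most 1% of the parent in every library for 21 of the 33, and to over 10% in some library for 6, among them Rpl3, Rpl9, Rpl17, Rpl31 and Rps23. The largest move of a log2 fold change was that of Rps23, from -0.23 to -0.05, and 0 members were then called. Rpl9 was the most exposed, with pseudogene counts between 12.7% and 66.5% of its own.

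Outside the symbol rule, 4 further genes encode proteins of the ribosome or its surface, and 0 of 4 were called. Fau, which encodes a small subunit protein as a fusion with a ubiquitin-like domain, was at 150, 160, 181 and 200 CPM with DMSO and at 241, 238, 292 and 252 CPM with SAG. Every SAG mouse lay above every DMSO mouse, and the log2 fold change was 0.57 with an SE of 0.17 (edgeR adjusted p = 0.0973). The scaffold Rack1 had a log2 fold change of -0.13 (SE 0.17) and Rps3a1 one of -0.29 (SE 0.19).

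Among 20 translation factors and binding proteins with TOP mRNAs, which share translational control with the members, 0 were called and the median log2 fold change was -0.12. Npm1, a nucleolar chaperone of ribosome assembly, had the smallest p (log2 fold change -0.58, SE 0.19, edgeR adjusted p = 0.14), followed by the RNA-binding protein Hnrnpa1 (-0.44, SE 0.16, edgeR adjusted p = 0.194). In both, every SAG mouse was below every DMSO mouse. For 47 genes of rRNA processing and ribosome assembly the median was -0.30, 0 were called, and 10 were lower at an unadjusted p under 0.05, where 6.5% of all genes were. Nop14, a factor of small subunit assembly, was at 130 ± 16.5 CPM with DMSO and 79.9 ± 12.4 CPM with SAG (SD, n = 4 each, log2 fold change -0.70, edgeR adjusted p = 0.0689), and Utp20, of the same pathway, at 61.4 ± 22.1 and 32.9 ± 4.96 CPM (-0.90, edgeR adjusted p = 0.129). Without each mouse in turn the median of this list ran from -0.42 (without the fourth DMSO mouse) to -0.18 (without the second), and with the neutrophil score it was 0.29.

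For RNA polymerase I and its factors, 0 of 20 were called with a median of -0.18. Polr1a, its largest subunit, had a log2 fold change of 0.59 (SE 0.22, edgeR adjusted p = 0.20) and Taf1c, part of its promoter selectivity factor, one of -1.39 (SE 0.66, edgeR adjusted p = 0.34). Of 19 genes of mTORC1 and its translation targets 0 were called, with a median of -0.08 that ran from -0.16 (without the third DMSO mouse) to 0.02 (without the first). Eif4ebp2, a repressor of cap-dependent translation, had a log2 fold change of 0.55 (SE 0.19, edgeR adjusted p = 0.179) and Deptor, an inhibitor of mTOR, one of -1.15 (SE 0.44, edgeR adjusted p = 0.215). Among 7 transcription factors of ribosomal genes 1 was called higher in SAG, where 2.62% of all genes tested were. This was Max, the partner of Myc, at 106 ± 18.8 CPM with DMSO and 245 ± 47.6 CPM with SAG (SD, n = 4 each, log2 fold change 1.21, edgeR adjusted p = 0.0132). Its adjusted p was 0.0509 without the second DMSO mouse and 0.0564 without the fourth SAG mouse.

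The Rps6k family, kinases named for the Rps6 protein, had 1 call among 10, higher in SAG, where 2.62% of all genes tested were called higher. Rps6ka1, a kinase downstream of ERK, was at 77.4, 107, 107 and 133 CPM with DMSO and at 276, 349, 220 and 247 CPM with SAG (log2 fold change 1.37, SE 0.22, edgeR adjusted p = 0.0108). Without the third DMSO mouse its adjusted p was 0.0538. The neutrophil sums were also higher in every SAG mouse, and their part in this call cannot be told apart from that of the treatment. Of the 78 mitochondrial ribosomal protein genes tested, 0 were called and the median log2 fold change was -0.20. Mrpl42 had a value of -0.73 (SE 0.21, edgeR adjusted p = 0.0907) and Mrps15 one of 0.76 (SE 0.24, edgeR adjusted p = 0.131), in opposite directions.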

How the data were processed

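The authors sorted mCherry-positive, CD73-positive cells, made stranded total RNA libraries and deposited 1 table of whole-number counts per gene for 8 libraries. The submitters' processing notes name kallisto, DESeq2 and GRCm38, with no versions, and the build of the counting annotation is not given in the sources used here. From these deposited counts, genes were filtered with filterByExpr, scaled by TMM and tested with the robust quasi-likelihood test of edgeR 4.0.16 (R 4.3.3) in all 8 libraries, SAG against DMSO without covariates, calling genes at a Benjamini-Hochberg adjusted p under 0.05. DESeq2 1.42.0 and limma 3.58.1 (voom with sample quality weights) were alternatives. The scripts were tested on simulated data. SE is the absolute log2 fold change over the root of F, CPM uses TMM factors, and paralog ratios on the log2 scale took a pseudocount of 0.5 and an exact permutation test.

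The members and lists were chosen with earlier results of these data known. Named members were the 5 highest and 5 lowest fold changes, called members, paralog pairs, Rplp0, Rplp1, Rplp2, Rpsa and the 4 highest levels per length. In other lists they were called genes, or otherwise the 2 smallest p-values. Rpl5, Rpl10, Rpl11, Rpl15, Rpl24, Rps6, Rps9, Rps12, Rps13, Rps15 and Rps27a, the remaining genes outside the rule and the count ratios were named after their values were seen. Annotation came from GENCODE M21 and promoter windows from RefSeq on GRCm38.p6. Each library held 24971992 to 46593090 counts, and a count of 3, taken as a floor, equals between 0.064 and 0.120 CPM. Replicates are separate mice. The values of 2 genes are not reported here.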

Additional observations from a re-analysis of the deposited data

Results flagged for a closer look

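In 106 groups of 4 mice, the farthest mouse was set against the rest by Dixon's rule, and 6 stood apart, where chance gives about 5.3 (1 in 20). For members these were Rps12l1 at 0.724 CPM in the third DMSO mouse, with the other DMSO mice at 0, and the fourth DMSO mouse for Rplp0 (591 CPM, the next at 715 CPM) and for Rplp2 (276 CPM, the next at 423 CPM). Among the other genes named they were Hnrnpa1 at 353 CPM in the third SAG mouse, Max at 77.7 CPM in the fourth DMSO mouse and Utp20 at 25.5 CPM in the first SAG mouse.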

How the results depend on the processing

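No ribosomal protein gene was called in edgeR under any scaling, filter, covariate, left-out mouse or pseudogene setting, and voom called 1 lower. Their median kept its sign except with the neutrophil score (0.11), and was -0.37 with the B lineage score. Over all genes, 404 were higher and 41 lower in the main test. DESeq2 called 797 and 390, voom 995 and 398, the neutrophil score 0 and 11, the fit without DMSO replicate 4 and SAG replicate 2 (chosen after seeing the data, like the added pseudogene counts) 731 and 298. Lower calls were 87 with at least 10 counts in every library and 169 with the B lineage score. With the replicate block 334 were higher and 18 lower, and 0 members. Same-numbered mice did not deviate together (correlations of 0.12, 0.02, 0.02 and 0.01), so the numbers were not taken as pairs. Without each mouse in turn, 80 to 1017 genes were higher (lowest without DMSO replicate 2, highest without DMSO replicate 4) and 4 to 343 lower (lowest without DMSO replicate 3, highest without DMSO replicate 4), with 0 members. Lists around the ribosome had 2 genes higher and 0 lower. DESeq2 called 5 and 5, voom 5 and 4, the B lineage score 1 and 1, the neutrophil score 0 higher (Rps6ka1 at 0.70 and Max at 1.57), and leaving out a mouse 1 to 5 and 0 to 3.

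Over all 85 members, 64 were below 0, against 27 with the neutrophil score, 72 with the B lineage score and 45 without SAG replicate 2. Among the members named by rule, direction turned with the neutrophil score for Rpl3l (-6.89), Rps12l1 (-1.31), Rpl39l (1.40), Rpl7l1 (0.81), Rpl22l1 (0.57), Rpl22 (0.11), Rps27l (-0.18), Rps4l (0.47), Rps4x (0.092), Rplp0 (0.49), Rpsa (0.49) and Rpl19 (0.45), and with the B lineage score for Rpl6l (-4.84), Rpl7 (-0.45), Rps27l (-0.12) and Rplp2 (-0.44). Rpl7, at 0.02, was also below 0 with DESeq2 (-0.0032) and its size factors (-0.0031), voom (-0.074), no TMM (-0.027) and those 2 mice left out (-0.012). Leaving out 1 mouse turned Rpl7 (-0.071 to 0.11), Rpl19 (-0.18 to 0.0085), Rpl22l1 (-0.34 to 0.063), Rpl7l1 (-0.13 to 0.088), Rplp0 (-0.12 to 0.064), Rpsa (-0.17 to 0.041), Rps27l (-0.24 to 0.36), Rps4l (-0.34 to 0.24) and the log2 ratios of Rpl22l1 (-0.21 to 0.13), Rpl7l1 (-0.091 to 0.054) and Rps27l (-0.30 to 0.20) to their parents. Without a turn, values moved by over 1.5 times for Rpl22 (-0.31 to -0.023), Rpl23a (-0.30 to -0.090), Rpl29 (-0.41 to -0.13), Rpl39 (-0.39 to -0.055), Rpl39l (-3.34 to -1.24), Rpl3l (0.70 to 1.94), Rpl6l (0.94 to 3.33), Rplp2 (0.066 to 0.28), Rps12l1 (3.63 to 10.44), Rps27 (0.12 to 0.36), Rps3 (0.25 to 0.58), Rps3a1 (-0.42 to -0.18) and Rps4x (-0.49 to -0.22). The cause was not tested. With 4 mice a group, precision is limited by the spread between mice, and members with few counts have wide intervals.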
